A study of Mus musculus with 7 samples.

Results

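The genes described here are 31 genes of the endoplasmic reticulum (ER), the compartment in which secreted and membrane proteins are folded, and of the unfolded protein response that adjusts its folding capacity. They were chosen by name, and all 31 were found among the 51789 genes of the count table; 30 of them held enough counts for testing, and Derl3 did not. Expression was measured by 3′ tag sequencing of polyA RNA in 7 libraries of mouse cells labelled granulocytes. Of these libraries, 4 were wild type for Alox15, the gene of an enzyme that oxidises polyunsaturated fatty acids, 3 were knockout for it, and all 7 were labelled untreated. The sources used here do not give the strain, age, tissue of origin, sorting or allele. The title of the series concerns ferroptosis of neutrophils in tumours, and the design text names the Alox15 status as the contrast.

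ER stress is sensed by 3 membrane proteins, encoded by Ern1 (IRE1 alpha), Eif2ak3 (PERK) and Atf6. IRE1 alpha splices Xbp1 mRNA so that it encodes an active transcription factor, PERK slows translation, and ATF6 is cut in the Golgi to release a transcription factor. Active XBP1 and ATF6 raise the genes of chaperones such as BiP (Hspa5), of disulfide isomerases and of ER-associated degradation, which returns misfolded proteins to the cytosol for disposal. Plasma cells and other cells that secrete much protein hold this system at a high level. Counts per gene do not separate the spliced from the unspliced form of Xbp1, and the activity of the sensors is not read from their mRNA.

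Total counts ran from 3228292 to 5657192 per library, and levels are given as CPM, each gene's counts scaled to a common library total with TMM factors. Because a 3′ tag kit reads near 1 end of each transcript, CPM was not divided by gene length. Alox15 itself had 1 count in knockout 1 and 0 in the other 6 libraries, so it does not test the labels. The libraries differed in makeup within and between the genotypes. The summed level of 14 mature neutrophil markers was 2949 CPM in wild type 2 and 2391 CPM in knockout 3, against 12531 to 30906 CPM in the other 5 libraries. The 15 T and NK cell markers summed to 546 to 1164 CPM over the wild types and 615 to 1601 CPM over the knockouts, and the 12 monocyte and macrophage markers to 381 to 1408 CPM over the wild types and 720.4 to 2499.8 CPM over the knockouts. All 12 of these had fitted changes above 0, and 0 passed in edgeR (1 at an unadjusted p under 0.05). Over all tested genes, 6428 of 12506 were above 0, and 0.448% were higher at that p. Their sum was highest in knockout 1, whereas that of knockout 3 lay below wild types 1, 3 and 4. The 8 stromal and endothelial markers summed to 96.14 to 307 CPM over the wild types and 159.6 to 266 CPM over the knockouts. Of the 6 tested, 5 had fitted changes above 0 and 1, Col1a2, below (log2 fold change -0.40), and 0 passed. Sparc and Pecam1 lay higher in every knockout than in any wild type (unadjusted p = 0.0311 and 0.0322 in edgeR). The other tested markers overlapped between groups, and 1.57% of all tested genes were separated in that direction. The 7 eosinophil markers summed to 3.132 to 33.8 CPM over the wild types and 2.92 to 24.5 CPM over the knockouts, with Epx alone at 0 counts in all libraries and Ear2 and Siglecf the highest. The 7 basophil and mast cell markers summed to at most 25.1 CPM in any library, with 5 at 0 counts in all libraries and Cpa3 and Kit detected. The part of these cells in the results below was not tested. Knockouts 2 and 3 carried another stem in their sample descriptions than the other 5 libraries and also differed from them in Xist, at 382 and 102 CPM against 0.896 to 6.11 CPM, so sex, stem and part of the genotype contrast cannot be told apart. In bulk RNA, fewer cells of a type and less RNA per cell cannot be told apart either.

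Some of the genes hold a sequence element in their promoters. The genes were chosen by name as part of the response to ER stress, and the elements searched are those described for that response. Choice and element are therefore not independent, and the shares below are a description. A window from 250 bases before to 50 bases after the start site was found for 26 of the 31 genes in RefSeq (GRCm38.p6). The ER stress element (ERSE), the letters CCAAT and CCACG with 9 bases between them on either strand, occurred in the window of 10 of these 26 genes, and in 3 of them when only the 150 bases nearest the start were searched. Over all 27025 genes of the same table, 37 genes or 0.137% held it. ERSE-II, the letters ATTGG and CCACG with 1 base between them, occurred in Herpud1 and Dnajb11, against 12 genes or 0.0444% over the table. The letters TGACGTGG (UPRE), a site described for XBP1 and ATF6, occurred in 0 of the 26 windows and in 193 genes or 0.714% over the table. No window held both ERSE and ERSE-II; UPRE contains the reverse complement of CCACG and can overlap either. A match describes letters and not binding.

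The stretches below hold the match in capitals with 21 bases on each side in lower case, 5′ to 3′ on the strand of the gene. They were picked to show the range of the set: the most abundant chaperone gene (Hspa5), the 2 lectin chaperones (Calr, Canx), an isomerase (Pdia6), the ubiquitin ligase whose level differed most by its unadjusted p (Syvn1), a gene with almost no counts (Derl3), and both genes with ERSE-II. In Calr and Derl3 the element lies on the opposite strand, so the capitals read as its reverse complement.
Hspa5 (chr2:34772004-34772064, plus strand): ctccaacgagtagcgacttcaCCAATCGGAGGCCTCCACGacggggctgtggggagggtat
Syvn1 (chr19:6046511-6046571, plus strand): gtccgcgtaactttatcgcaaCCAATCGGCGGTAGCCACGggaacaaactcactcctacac
Pdia6 (chr12:17266470-17266530, plus strand): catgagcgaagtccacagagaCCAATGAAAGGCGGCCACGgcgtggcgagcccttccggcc
Canx (chr11:50325779-50325839, minus strand): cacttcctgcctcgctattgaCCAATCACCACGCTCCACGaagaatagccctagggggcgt
Calr (chr8:84847054-84847114, minus strand): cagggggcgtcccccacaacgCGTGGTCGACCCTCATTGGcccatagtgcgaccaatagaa
Derl3 (chr10:75893221-75893281, plus strand): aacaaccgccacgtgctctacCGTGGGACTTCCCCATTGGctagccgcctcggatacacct
Herpud1 (chr8:94386356-94386408, plus strand): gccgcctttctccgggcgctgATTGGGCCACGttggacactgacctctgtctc
Dnajb11 (chr16:22857831-22857883, plus strand): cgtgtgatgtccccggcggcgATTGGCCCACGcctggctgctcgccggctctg
The ERSE of Syvn1 began 44 bases upstream of the RefSeq start site and that of Hspa5 65 bases upstream. The GENCODE coordinates of Hspa5 given below begin before its stretch, so by those coordinates the element lies within the gene. The other genes with an ERSE were Hsp90b1, with 2 of them, Dnajc3, Creld2 and Ero1lb. Sel1l, Xbp1, Edem1 and Pdia4 had a window without any of the 3 motifs. Holding the element did not go with one level: Hspa5 was the most abundant of the 31 genes, at 982 CPM on average, whereas Derl3 was close to 0.

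**Figure D1:**
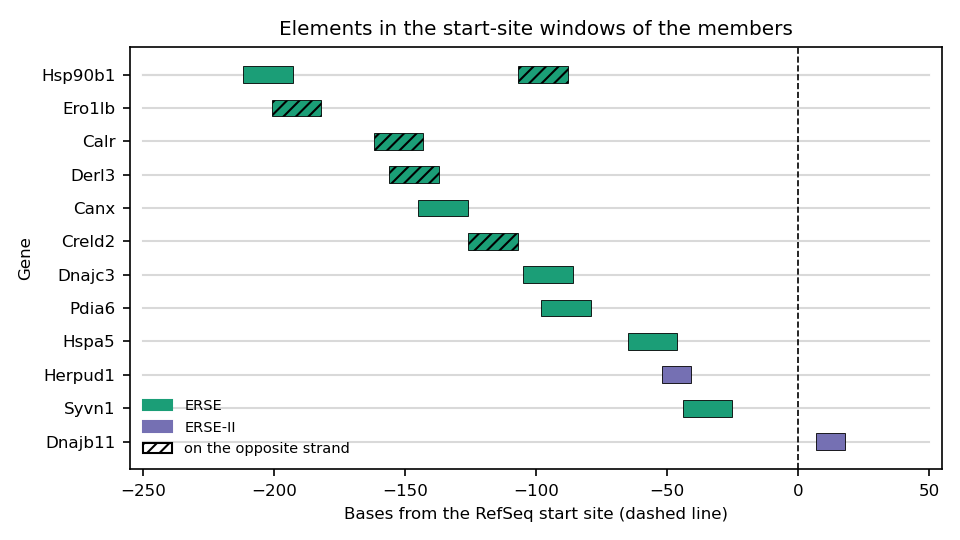
Position of each ERSE (green) and ERSE-II (purple) match in the RefSeq windows of 12 genes, in bases from the start site, with hatched bars on the opposite strand and grey lines for the window searched. The matches lie upstream of the start, from 212 bases upstream in Hsp90b1 to 44 in Syvn1, other than that of Dnajb11, which begins 7 bases downstream of it.

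The level of the genes differed widely from one to another. The 31 genes together took 0.383 to 0.645% of all counts, the lowest share in wild type 1 (Wilson 95% interval 0.377 to 0.389%, counting error only) and the highest in wild type 2 (0.638 to 0.651%). The 3 knockouts lay between, at 0.471, 0.448 and 0.444%. Hspa5, Hsp90b1, Calr and Canx stood highest on average and Ern1, Ero1lb, Sdf2l1, Dnajb9 and Creld2 lowest among the 30 tested genes, whose mean ran from 11.04 CPM for Ern1 to 982 CPM for Hspa5. Neighbours in this order mostly overlapped over libraries. The ratio of the highest to the lowest library was 1.44 for Sel1l, the steadiest gene, and 10.5 for Dnajb9, the most variable, with a median of 2.40. For 10 of the 30 genes it was at most 2.

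**Figure D2:**
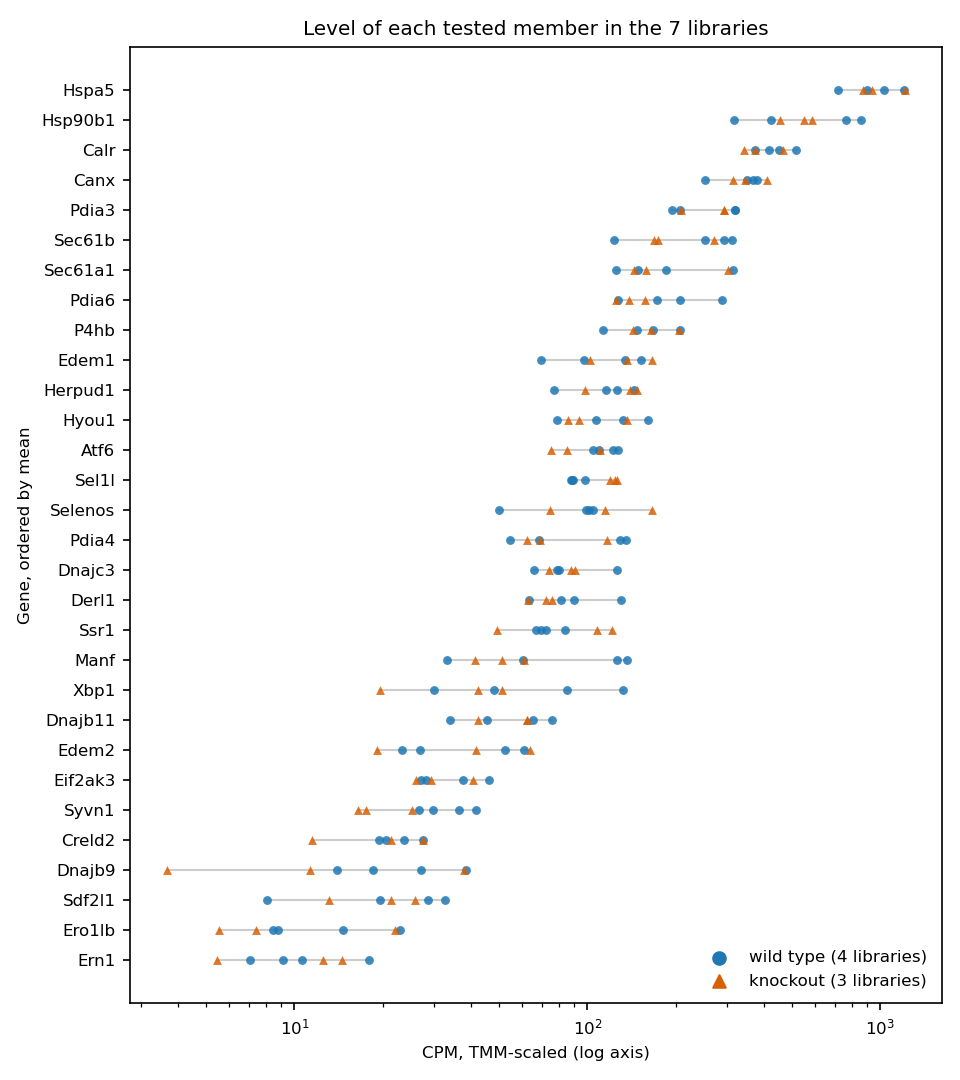
TMM-scaled CPM of the 30 tested genes on a log axis, with 1 point per library (blue circles wild type, orange triangles knockout), a grey line over the range, and genes in the order of their mean. The groups overlap for 28 of 30 genes, and Sel1l and Syvn1 are the exceptions.

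Knockout and wild type were set against each other for the question of whether loss of Alox15 went with a change in these genes. None of the 30 tested genes passed in edgeR (adjusted p = 0.99995 for each), as was the case for all 12506 genes tested, of which 0 or 0% were called. At an unadjusted p under 0.05 there was 1 gene, Syvn1, lower in knockout; over all genes 0.784% were lower at that level and 0.448% higher. DESeq2 and limma-voom also called 0 of these genes, with 0 and 2 at an unadjusted p under 0.05. Over all genes, 354 of 20744 in DESeq2 and 524 of 12506 in limma-voom were under that level. The fitted change was below 0 for 18 of 30 genes and above 0 for 12, where 48.6% of all tested genes were below 0. The median log2 fold change was -0.13 over the 30 genes and 0.012 over all tested genes. The standard error of a change had a median of 0.33 over the 30 genes, and the fitted change of Syvn1 alone lay more than 2 standard errors from 0. Whether the libraries come from different animals is not stated, and each p then reflects the scatter of the 7 libraries, some of which may be technical.

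**Figure D3:**
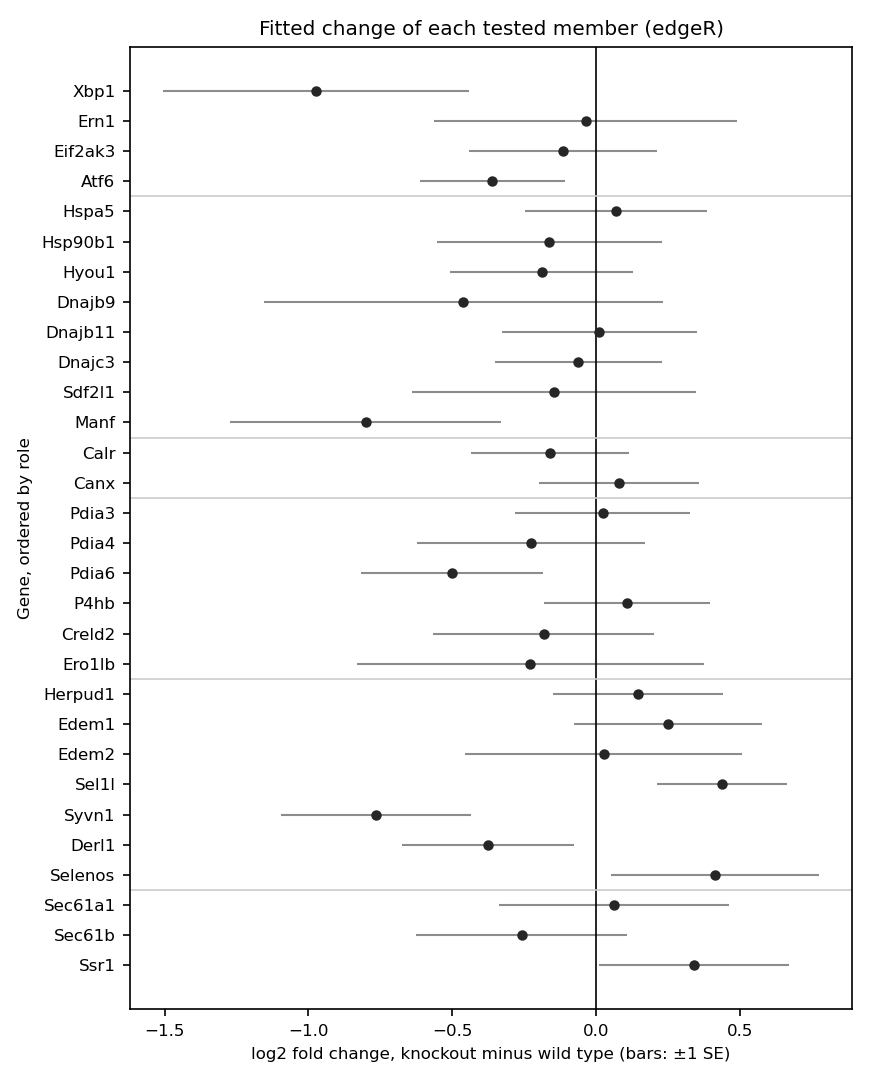
Fitted log2 fold change of the 30 tested genes, knockout minus wild type, with bars of 1 standard error in each direction and grey lines between role groups. The values run from -0.97 for Xbp1 to 0.44 for Sel1l, and none passed the test.

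In the sensor group all 4 genes had fitted changes below 0, and 0 passed. Xbp1 (ENSMUSG00000020484, chr11:5520659-5525893, plus strand) stood at 48.1, 85.2, 132 and 29.9 CPM in wild types 1 to 4 and 42.2, 51.2 and 19.7 CPM in knockouts 1 to 3. The groups overlapped, and wild types 2 and 3 lay above all 3 knockouts while wild type 4 lay below knockouts 1 and 2. The mean was 73.8 ± 45.1 CPM over the wild types (SD, n = 4) against 37.7 ± 16.2 CPM over the knockouts (SD, n = 3), with a log2 fold change of -0.97 ± 0.53 (SE) and an unadjusted p of 0.0986. With 1 library left out, the change ran from -1.26 to -0.53, the extremes without wild type 4 and without wild type 3, the highest library. Immunoglobulin-secreting plasma cells need Xbp1, and the summed level of 9 plasma cell markers was 20.05 to 33.4 CPM over the wild types and 33.1 to 61.2 CPM over the knockouts, with Tnfrsf17 at 0 counts in all 7 libraries. The 9 B cell markers summed to 129.7 to 643 CPM over the wild types and 309 to 529 CPM over the knockouts, and the part of such cells in the Xbp1 values was not tested.

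The sensor kinase gene Ern1 was the least abundant tested gene, at 17.9, 7.05, 9.14 and 10.6 CPM in wild types 1 to 4 and 14.6, 12.6 and 5.45 CPM in knockouts 1 to 3. It was highest in wild type 1 and knockout 1, lowest in wild type 2 and knockout 3, and its log2 fold change was -0.037 ± 0.53 (SE). Eif2ak3, which encodes the kinase PERK, stood at 46.3, 28.0, 37.5 and 27.0 CPM in wild types 1 to 4 and 29.2, 26.0 and 40.7 CPM in knockouts 1 to 3. Its groups overlapped almost fully, with a log2 fold change of -0.12 ± 0.33 (SE); a small nucleolar RNA gene on the same strand within Eif2ak3 held 5.82 to 22.0 CPM. Atf6 was the most abundant of the sensors, at 109, 122, 105 and 128 CPM in wild types 1 to 4 and 75.2, 111 and 85.3 CPM in knockouts 1 to 3. Knockouts 1 and 3 lay below all wild types and knockout 2 within their range (log2 fold change -0.36 ± 0.25 (SE), unadjusted p = 0.185 in edgeR).

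Among the 8 lumenal chaperones and co-chaperones, 6 fitted changes were below 0 and 2 above, and 0 passed. Hspa5 (ENSMUSG00000026864, chr2:34771970-34777547, plus strand), which encodes BiP, the Hsp70 of the ER and the partner that holds the sensors inactive, stood at 1029, 1200.2, 901 and 717 CPM in wild types 1 to 4 and 1214, 876 and 939 CPM in knockouts 1 to 3. The 2 highest libraries, wild type 2 and knockout 1, came from different groups and differed by little. The mean was 962 ± 204 CPM over the wild types (SD, n = 4) against 1009.8 ± 180.05 CPM over the knockouts (SD, n = 3) and the log2 fold change 0.070 ± 0.32 (SE). This change turned below 0 without wild type 4 or without knockout 1.

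Manf, a secreted ER protein that binds BiP, had the smallest unadjusted p of the group (0.120). It stood at 33.2, 136, 126 and 60.1 CPM in wild types 1 to 4 and 60.8, 41.3 and 51.0 CPM in knockouts 1 to 3. Wild types 2 and 3 were more than 2 times the level of the other libraries, and wild type 1 was the lowest of all. The log2 fold change was -0.80 ± 0.47 (SE), and it ran from -1.08 to -0.52 with 1 library left out, the extremes without wild type 1 and without wild type 2. The annotated Manf gene overlaps Dcaf1 on the other strand and Rbm15b on its own strand, with 17.3 to 37.9 and 14.2 to 40.9 CPM, and the sources used here do not give the strand setting of the counting.

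Hsp90b1, the ER member of the Hsp90 family (GRP94), stood at 316, 861, 765 and 425 CPM in wild types 1 to 4 and 454, 583 and 549 CPM in knockouts 1 to 3. The wild types spanned a wider range than the knockouts, which lay inside it. Dnajb9, an inducible BiP co-chaperone, varied most of all: it stood at 38.5, 13.9, 27.0 and 18.5 CPM in wild types 1 to 4 and 37.9, 3.68 and 11.3 CPM in knockouts 1 to 3, with only 12 counts in knockout 2. Its highest libraries, wild type 1 and knockout 1, were again from both groups. The remaining 4 genes overlapped between groups, with log2 fold changes of -0.19 for the nucleotide exchange factor Hyou1, 0.011 for Dnajb11, -0.062 for Dnajc3, both BiP co-chaperones, and -0.15 for Sdf2l1.

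The lectin chaperones, which hold newly made glycoproteins during folding, overlapped between the groups and 0 passed. Calr, the soluble calreticulin, stood at 374, 516, 416 and 452 CPM in wild types 1 to 4 and 373, 343 and 464 CPM in knockouts 1 to 3. Its membrane-bound relative Canx, calnexin, stood at 252, 381, 349 and 367 CPM in wild types 1 to 4 and 314, 345 and 409.9 CPM in knockouts 1 to 3. The knockouts lay on both sides of the wild-type median for Calr and Canx, with log2 fold changes of -0.16 ± 0.28 (SE) and 0.078 ± 0.28 (SE). With 1 library left out, that of Calr ran from -0.36 to -0.072, the extremes without knockout 3 and without wild type 2. Canx was highest in knockout 3 and lowest in wild type 1.

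The 6 disulfide isomerases and oxidases, which form and rearrange disulfide bonds, had 4 fitted changes below 0 and 2 above, and 0 passed. Pdia6, an isomerase known to bind IRE1 alpha, had the smallest unadjusted p (0.147) and stood at 127, 287, 207 and 173 CPM in wild types 1 to 4 and 139, 125 and 157 CPM in knockouts 1 to 3. Wild types 2, 3 and 4 lay above all knockouts and wild type 1 among them (log2 fold change -0.50 ± 0.32 (SE), and -0.27 without wild type 2). Pdia3, the partner of calnexin and calreticulin, had the highest mean and stood at 195, 319.9, 320.2 and 206 CPM in wild types 1 to 4 and 293, 292 and 209 CPM in knockouts 1 to 3. Wild types 1 and 4 and knockout 3 were the 3 lowest libraries, so both genotypes stood at either end, and its log2 fold change was 0.023 ± 0.30 (SE). P4hb, the founding isomerase PDI, had 0.11, Pdia4 -0.23, Creld2 -0.18 and the oxidase gene Ero1lb -0.23 as log2 fold change. Ero1lb was at 23.0 and 22.0 CPM in wild type 1 and knockout 1 and at 5.51 to 14.7 CPM in the other 5 libraries.

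The degradation group held the 2 genes whose groups did not overlap under TMM scaling, 1 of 30 in each direction. Over all tested genes such separation was found for 1.57% with higher and 1.57% with lower values in knockout, so the counts here are near the background. Syvn1 (ENSMUSG00000024807, chr19:6046576-6053712, plus strand) encodes HRD1, the ubiquitin ligase of the ER membrane. It stood at 36.5, 29.8, 26.6 and 41.6 CPM in wild types 1 to 4 and 17.5, 16.5 and 25.1 CPM in knockouts 1 to 3. All 3 knockouts lay below all 4 wild types, with knockout 3 just under wild type 3. The mean was 33.6 ± 6.71 CPM over the wild types (SD, n = 4) against 19.7 ± 4.70 CPM over the knockouts (SD, n = 3), the log2 fold change -0.76 ± 0.33 (SE) and the unadjusted p 0.0437 in edgeR, with an adjusted p of 0.99995. The separation was lost with RLE or upper-quartile scaling, where knockout 3 reached 26.3 and 27.4 CPM and the lowest wild type 26.0 and 26.4 CPM. With 1 library left out, the unadjusted p was 0.0574 to 0.136 without wild type 1, 2 or 4 or knockout 1 or 2, and under 0.05 without wild type 3 or knockout 3. Mrpl49 overlaps Syvn1 on the other strand and stood at 14.0, 23.8, 27.2, 36.8, 15.6, 23.9 and 31.5 CPM in the same order of libraries, and reads of the 2 genes cannot be told apart if the counting, whose strand setting was not given, ignored strand.

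Sel1l (ENSMUSG00000020964, chr12:91806043-91849157, minus strand) encodes the adaptor that holds HRD1 and brings it its substrates. It was described in full after its values were seen, because its groups did not overlap. It stood at 98.3, 89.6, 87.8 and 88.7 CPM in wild types 1 to 4 and 125, 126 and 119 CPM in knockouts 1 to 3. Each knockout lay above each wild type, and within each group the libraries were close together. The mean was 91.1 ± 4.86 CPM over the wild types (SD, n = 4) against 123 ± 3.91 CPM over the knockouts (SD, n = 3), the log2 fold change 0.44 ± 0.22 (SE) and the unadjusted p 0.0815, with an adjusted p of 0.99995 in edgeR. The separation was present with TMM, RLE, upper-quartile and unscaled library sizes.

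The ratio of the 2 genes is given as a description with no test: both were picked for lying on opposite sides, so that choice fixes that it separates the groups. Sel1l counts divided by Syvn1 counts gave 2.70, 3.01, 3.30 and 2.13 in wild types 1 to 4 and 7.12, 7.65 and 4.74 in knockouts 1 to 3. The mean ratio was 2.78 ± 0.499 over the wild types (SD, n = 4) and 6.50 ± 1.55 over the knockouts (SD, n = 3). The ratio uses counts of the same library, so library scaling does not enter it.

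**Figure D4:**
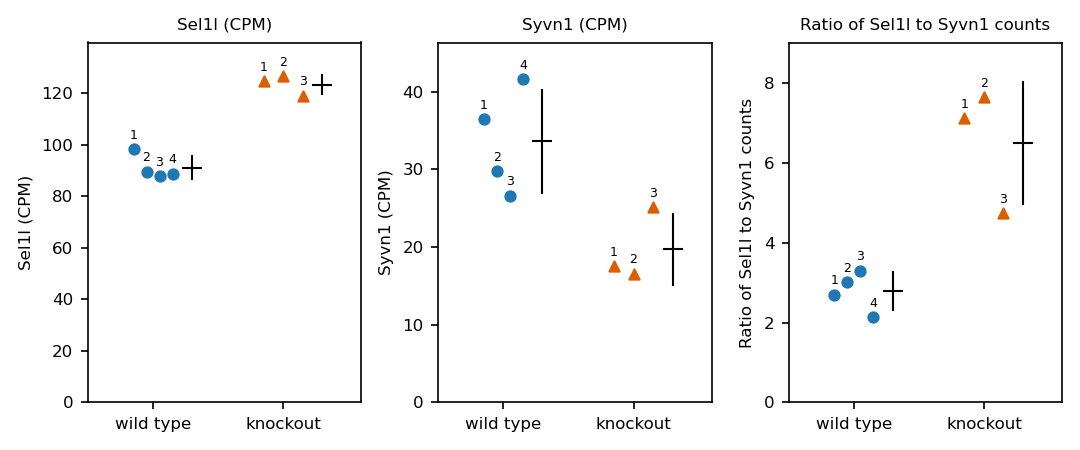
Sel1l and Syvn1 in TMM-scaled CPM and the ratio of their counts, with 1 point per library labelled by replicate number (blue circles wild type, orange triangles knockout) and the group mean with its SD in black. Knockouts lie at 119 to 126 CPM for Sel1l against 87.8 to 98.3 CPM in wild type, and at 16.5 to 25.1 CPM for Syvn1 against 26.6 to 41.6 CPM.

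The other degradation genes overlapped between groups. Edem1, a lectin that picks glycoproteins for degradation, had the highest mean log2 CPM of the group and stood at 97.7, 134, 152 and 69.6 CPM in wild types 1 to 4 and 166, 136 and 102 CPM in knockouts 1 to 3. The highest and the lowest library were knockout 1 and wild type 4, and the log2 fold change was 0.25 ± 0.33 (SE). It was 0.059 without wild type 4, 0.071 without knockout 1 and 0.42 without wild type 3. Selenos, a selenoprotein of the retrotranslocation complex, stood at 49.8 to 105 CPM over the wild types and 74.4 to 166 CPM over the knockouts, with a log2 fold change of 0.41. The log2 fold change was 0.15 for Herpud1, a ubiquitin-like scaffold of the same complex, and 0.026 for Edem2. Derl1, a channel subunit, was highest in wild type 1, at 131 CPM against 62.9 to 89.8 CPM elsewhere (log2 fold change -0.38). Its paralog Derl3 had 2 counts in knockout 3 and 0 in the other 6 libraries, where a count of 0 allows up to 0.470 to 0.919 CPM per library (3 counts).

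Of the 3 translocon genes, whose products carry nascent proteins into the ER, none passed. Sec61b, the beta subunit, had the highest mean log2 CPM and stood at 123, 251, 293 and 311 CPM in wild types 1 to 4 and 174, 169 and 271 CPM in knockouts 1 to 3. Wild type 1 was the lowest library and the groups overlapped (log2 fold change -0.26 ± 0.37 (SE)). With 1 library left out it ran from -0.58 to -0.11, the extremes without knockout 3 and without wild type 4. Ssr1, a subunit of the associated TRAP complex, stood at 69.3, 67.0, 72.5 and 83.9 CPM in wild types 1 to 4 and 121, 108 and 49.1 CPM in knockouts 1 to 3. Knockouts 1 and 2 lay above and knockout 3 below all wild types, and the change was 0.34 ± 0.33 (SE) (0.58 without knockout 3 and 0.10 without knockout 1). For Sec61a1, the channel itself, wild type 4 and knockout 3 stood at 313 and 301 CPM and the other 5 libraries at 125 to 186 CPM.

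The 30 genes did not move as 1 block over the libraries. Wild type 2 was the highest library for 7 genes and the lowest for 0, whereas wild type 1 was the lowest for 9 and the highest for 6. Ern1, Dnajb9, P4hb, Ero1lb and Edem2 stood higher in wild type 1 and knockout 1, the libraries with most neutrophil marker RNA, than in all other libraries; this order held for 13.2% of all tested genes. Dnajc3, Canx and Pdia4 stood lower in these 2 libraries than in the other 5, as did 11.3% of all genes. In the libraries poorest in those markers, wild type 2 and knockout 3, Ern1, Edem2, Derl1 and Ssr1 were both below the other 5 (16.1% of all genes) and Dnajc3, Calr and Canx both above (6.25%). Counts of 3 to 5 in 30 are near these background shares. The part of the neutrophil share in these orders was not tested.

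**Figure D5:**
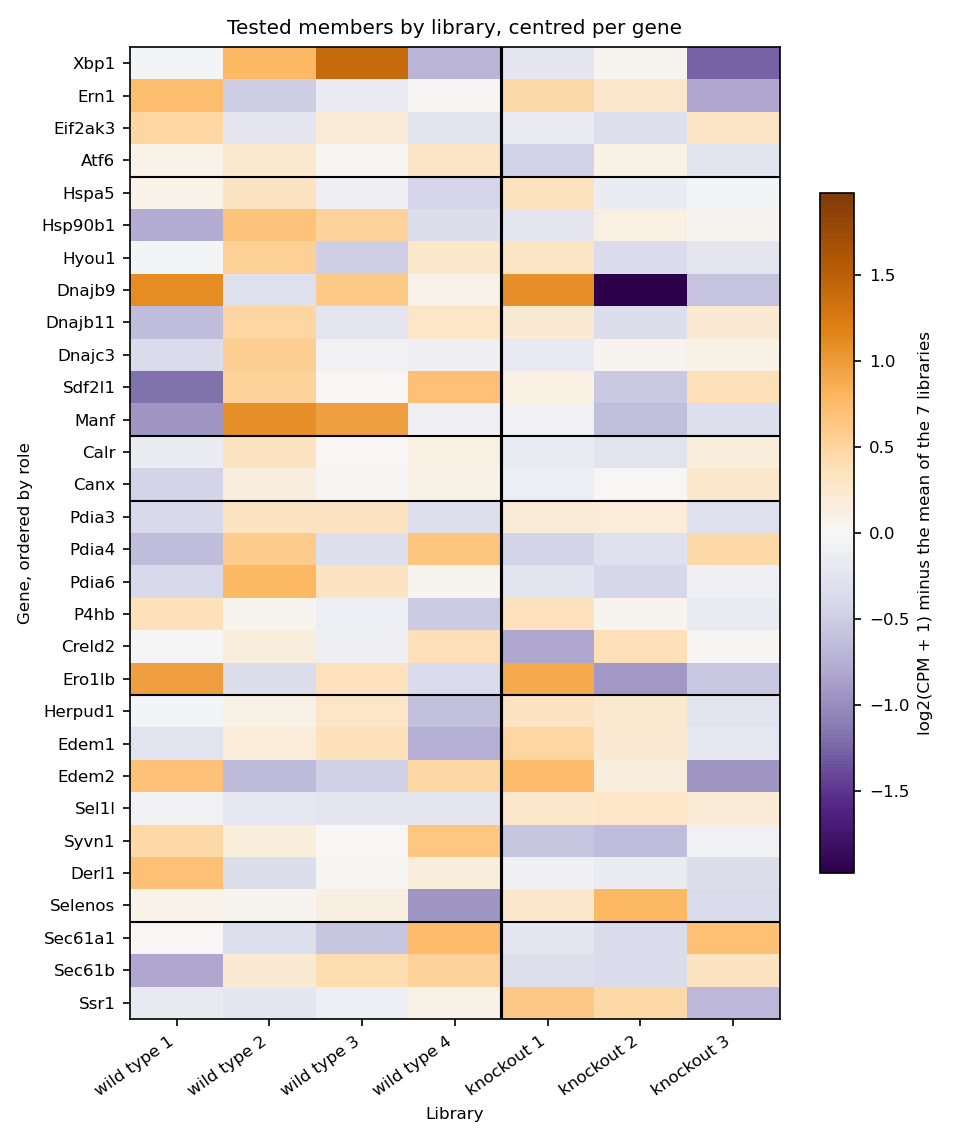
Each tested gene in each library as log2(CPM + 1) minus its mean over the 7 libraries (orange above, purple below), with genes by role and a vertical line between the 4 wild types and the 3 knockouts. Ern1, Dnajb9 and Ero1lb are orange in wild type 1 and knockout 1, and Sel1l and Syvn1 change colour at the vertical line, with wild type 3 and knockout 3 close to 0 for Syvn1.

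The other genes of the pathway came from 5 lists with 160 genes, of which 149 were tested. They gave 0 calls in edgeR in either direction, 0 in DESeq2 and 0 in limma-voom. In edgeR, 67 fitted changes were above 0 and 82 below, with 0 and 3 at an unadjusted p under 0.05. Over all tested genes, 48.6% of fitted changes were below 0, and at that p 0.448% were higher and 0.784% lower. Among stress response regulators, 9 of 19 tested members had a fitted change above 0 and 10 below 0 (median log2 fold change -0.067), and 0 passed. Ppp1r15a (GADD34), which restores translation after PERK has acted, was the most abundant and ran from 107 to 1222 CPM, with wild type 1 highest. Trib3, a pseudokinase induced under stress, averaged 51.5 ± 21.8 CPM over the wild types (SD, n = 4) against 83.1 ± 34.2 CPM over the knockouts (SD, n = 3) (log2 fold change 0.69 ± 0.39 (SE)), and Mbtps1, the protease that cuts ATF6 first, 68.0 ± 12.4 CPM over the wild types (SD, n = 4) against 89.5 ± 11.7 CPM over the knockouts (SD, n = 3) (0.39 ± 0.26 (SE)). Atf4 and Ddit3, the transcription factors downstream of PERK, had log2 fold changes of 0.27 and 0.075.

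Among other lumenal folding factors, 16 of 29 tested members had a fitted change above 0 and 13 below 0 (median log2 fold change 0.040), and 0 passed. Groups did not overlap for 2 of the 29, both higher in knockout, and for 3 higher and 4 lower of the 149 genes of the 5 lists, beside 1.57% in each direction over all tested genes. The 2 genes are those with the smallest unadjusted p, and they lay higher in every knockout than in any wild type: Erp29, a chaperone and redox-inactive PDI relative, at 139 to 179 CPM against 104 to 131 CPM, and Sil1, a nucleotide exchange factor of BiP, at 24.9 to 39.9 CPM against 11.1 to 24.2 CPM. Their unadjusted p were 0.0919 and 0.0787. Ero1l, the oxidase paralog of Ero1lb, was the most abundant at 117 to 423 CPM, highest in wild type 1 and knockout 1 as Ero1lb was.

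Among translocation and glycosylation factors, 14 of 34 tested members had a fitted change above 0 and 20 below 0 (median log2 fold change -0.087), and 0 passed. Ost4, a small subunit of the oligosaccharyltransferase, stood at 16.4, 37.1, 46.7 and 29.1 CPM in wild types 1 to 4 and 11.9, 10.7 and 19.1 CPM in knockouts 1 to 3. Only knockout 3 reached the wild-type range, and the unadjusted p of 0.0195 was the smallest of the 5 lists (-1.22 ± 0.43 (SE)). Tusc3, another subunit, had -0.84, and Rpn1, the most abundant, 0.35 as log2 fold change. Among other degradation factors, 14 of 32 tested members had a fitted change above 0 and 18 below 0 (median log2 fold change -0.022), and 0 passed. Rnf5, a ubiquitin ligase, stood at 2.45 to 5.65 CPM in knockout and 5.68 to 23.8 CPM in wild type (-1.46 ± 0.67 (SE)). Jkamp had 0.62 and Vcp, the ATPase that pulls substrates from the membrane and the most abundant of the list, 0.34.

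Among ER to Golgi traffic factors, 14 of 35 tested members had a fitted change above 0 and 21 below 0 (median log2 fold change -0.12), and 0 passed. Sec31a, a subunit of the outer COPII coat, stood at 125, 122, 123 and 113 CPM in wild types 1 to 4 and 73.3, 91.0 and 75.2 CPM in knockouts 1 to 3. All knockouts lay below all wild types, and the 4 wild types were close together. The log2 fold change was -0.60 ± 0.24 (SE) and the unadjusted p 0.0303 in edgeR. Groups did not overlap for 3 lower and 1 higher in knockout of the 35 tested, beside 1.57% in each direction over all tested genes. Sec23a, of the inner COPII coat, averaged 28.4 ± 8.86 CPM over the wild types (SD, n = 4) against 15.4 ± 2.03 CPM over the knockouts (SD, n = 3) (-0.89 ± 0.38 (SE), unadjusted p = 0.0412 in edgeR), and Lman2, the most abundant, had -0.13.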

How the data were processed

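RNA from 4 wild-type and 3 Alox15 knockout libraries was extracted on columns, treated with DNase and made into libraries with a QuantSeq kit, per the labels' protocols. The authors deposited 1 table of whole-number counts per Ensembl gene; RSEM 1.2.3, DESeq2 and mm10 are named in the submitters' processing notes with no role for each. The annotation, strand setting and treatment of multi-mapping reads are not given in the sources used here. PCR reads without molecular identifiers are not independent molecules.

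Symbols were found for 51596 of 51789 genes; coordinates are from GENCODE M21 (GRCm38). Knockout was compared with wild type by edgeR 4.0.16 in R 4.3.3 (filterByExpr, TMM, robust quasi-likelihood F test). Benjamini-Hochberg adjustment ran over 12506 genes, with a call at 0.05. The same fit was run on simulated counts. These were drawn independently per library without differences in makeup, sex or stem, so they do not show how the fit handles those. SE is implied by the F test. Genes given in full were the sensors, Hspa5 and, per role, the gene with the highest mean log2 CPM and that with the smallest p; in the wider lists, 2 with the smallest p and 1 with the highest mean. The genes, lists and alternatives were chosen with earlier results of these data known. Alternatives were DESeq2 1.42.0, limma-voom (limma 3.58.1), other scalings and filters, left-out libraries, a replicate block and the description stem. Motifs were searched in RefSeq windows (GRCm38.p6). Protein sequences were not analysed here.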

Additional observations from a re-analysis of the deposited data

Results flagged for a closer look

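In the 4 wild-type libraries, 2 of 30 tested genes had a sample far from the other 3, where chance flags about 1 in 20 groups. Sel1l stood at 98.3 CPM in wild type 1 and at 87.8 to 89.6 CPM in the others, and that library still lay below all 3 knockouts. Selenos stood at 49.8 CPM in wild type 4 and at 99.3 to 105 CPM in the others.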

How the results depend on the processing

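The 31 genes and the wider lists had 0 calls under all 16 alternatives. Over all genes, DESeq2 called 1 (Impdh2-ps, no member) and the others 0. The genes with an unadjusted p under 0.05 numbered 154 of 12506 in edgeR and 524 of 12506 in limma-voom. In DESeq2, fitted without the count filter, they numbered 354 of 20744. With the replicate block, on replicates 1 to 3 only, they numbered 72 of 12239. With 1 library left out they numbered 97 to 445, of 12005 to 13206 genes tested. The median log2 fold change of the 30 genes ran from -0.22 to -0.025 with 1 library left out, its extremes without knockout 3 and without knockout 2. The signs of Xbp1, Atf6, Manf, Calr, Pdia6, Edem1, Syvn1, Sel1l, Sec61b and Ssr1 were the same in all 16. These refits share the same libraries and are not independent. For Sel1l and Syvn1, whose groups did not overlap under TMM scaling, leaving out a library could hardly turn the sign. Log2 fold changes with 1 library left out ran from -0.12 to 0.14 for Pdia3, -0.31 to 0.25 for Ern1, -0.39 to 0.061 for Eif2ak3 and -0.083 to 0.20 for Hspa5. Among the genes given in full, other sign changes included Pdia3 at -0.0089 with upper-quartile factors and -0.0086 with no filter. Ern1 had 0.32 with limma-voom, 0.074 without wild type 2 and knockout 3 together and 0.39 with the description stem as covariate. Over all 30 tested genes, 0 to 7 signs differed from the main fit, with 7 without knockout 1. Fitted changes below 0 numbered 15 to 21 of 30, with 15 without knockout 2. The cause was not tested. With the stem as covariate, Sel1l had 0.45 and Syvn1 -0.94. Only knockouts 2 and 3 carry the other stem, so the genotype term of that fit rests on knockout 1 against the wild types. It therefore cannot separate genotype from stem or sex for knockouts 2 and 3. With the replicate block, Hspa5 had -0.055 and Pdia3 -0.060, 0 genes were called, and same-numbered libraries deviated together for number 1 but not for 2 and 3, so the numbers were not taken as pairs (r = 0.35, -0.22 and -0.18 across genes for numbers 1 to 3). ERSE was found in 3 genes when only the 150 bases nearest the start were searched, a shorter window. Low counts limit Derl3, and Dnajb9 in knockout 2.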

Other observations

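ERSE or ERSE-II occurred in the windows of 49 genes in all, of which 12 are described above and 37 are not. Of those 37, 14 were tested in edgeR and 0 passed, with 8 fitted changes above 0 and 6 below (median log2 fold change 0.050). The most abundant were Hnrnpa3 and Rbm39, 2 genes of RNA processing, at 819 and 617 CPM on average and log2 fold changes of -0.21 and 0.028. Krtcap2, a subunit of the oligosaccharyltransferase, averaged 211 CPM (0.14), and Nucb1, which encodes a calcium-binding protein of the Golgi, 105 CPM (-0.38). Genes of this set that were not tested include Ptgdr2 and the Esp genes Esp15, Esp16, Esp18 and Esp36, with 0 counts in all libraries. The 11 tested genes of the ER set with a match had a median log2 fold change of -0.16 and the 19 without a match or a window -0.12, given as a description.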
